A study of Mus musculus with 18 samples.

Results

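This report describes the liver of mice given a HF diet together with CR, compared with the liver of mice given the LF diet alone. The members were chosen by their titles, HF+CR 1 to 3 and LF 1 to 3, and are 6 of the 18 libraries of the series. All mice were wild-type C57BL/6J, were put on their regimen at 5 weeks of age, and had reached 62 weeks when the liver was removed. The labels give abbreviations only: LF and HF are taken to stand for a low-fat and a high-fat diet, CR for caloric restriction and Ex for exercise. LF received the LF diet and HF+CR received the HF diet with CR, so diet and restriction both differ between them and their shares cannot be told apart from this comparison alone. HF, with the HF diet and no CR, and LF+CR, with the LF diet and CR, were used as reference groups, with 3 libraries each. The question is whether restriction brought the HF liver back to the LF state or to another one. Neither the sex of the mice nor the number of animals behind a library is given, and the p-values therefore measure the spread between these samples, which may be technical.

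The liver makes cholesterol when sterols in its endoplasmic reticulum run low: the membrane-bound factor SREBP2 is then released and activates the enzymes of the mevalonate and sterol pathway. Fatty acids reaching the liver are either burned in mitochondria and peroxisomes, with many of the genes involved under the fatty acid-sensing receptor PPAR alpha, or stored in lipid droplets coated by perilipin and CIDE proteins. In mice, growth hormone released in pulses in males and more steadily in females sets many liver genes at different levels in the sexes, and diet can shift these genes.

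PolyA RNA was measured as RPKM, a read density per kilobase of transcript that is scaled to the library's reads. From the spacing of its lowest values, a library was estimated to hold 21.8 to 30.8 M reads, and 9184 to 9997 genes reached 1 RPKM in each of the 6 libraries. Hepatocyte markers summed to 27400 to 29700 RPKM in LF and 34200 to 36500 RPKM in HF+CR, although Alb, the albumin gene and a defining marker, is listed at 0 in all 6 libraries. Pancreatic acinar markers summed to 403 RPKM in HF+CR 1 and 38.6 RPKM in HF+CR 2, against 5.32 to 9.36 RPKM in LF and 8.3 RPKM in HF+CR 3. Their defining genes Prss2 and Ctrb1 were at 35.4 and 64.5 RPKM in HF+CR 1 and at 0 in HF+CR 2 and HF+CR 3. HF+CR 1 was the highest HF+CR library for all 10 tested acinar markers. HF+CR 2 was the lowest, alone or tied with HF+CR 3, for 8 of the 10, so most of its sum came from a few markers. Bile duct markers summed to 157 RPKM in LF 2 and 175 RPKM in HF+CR 3, against 20.5 to 41.9 RPKM in the other 4 libraries. Macrophage markers, at 325 and 316 RPKM, and stellate cell markers, at 162 and 165 RPKM, were also highest in these 2 libraries, against at most 195 and 89.4 RPKM in the other 4. In whole liver, fewer cells of a type and less RNA per cell cannot be told apart. Counts below are therefore also given without 3 libraries holding pancreatic transcripts, HF+CR 1, LF+CR 1 and LF+Ex 1 (the pancreas libraries), and with LF 2 and HF+CR 3 left out (the bile duct libraries). LF 2 and HF+CR 3 were high in macrophage and stellate cell markers as well, so this name covers only a part of what set them apart.

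Cholesterol synthesis genes stood higher in HF+CR livers than in LF livers, and PPAR alpha target genes and part of the lipid droplet coat stood lower. The male-biased genes Serpina1e and Selenbp2 were many times higher. Of 10356 genes tested, 366 (3.53%) passed limma's test at an adjusted p (Benjamini-Hochberg) under 0.05, of which 182 (1.76%) were higher and 184 (1.78%) lower in HF+CR. Of these, 97 differed by at least 2-fold on the log2(RPKM + 1) scale, and the median size of a called difference was 0.71. HF against LF gave 42 calls (0.406%), 27 higher (0.261%) and 15 lower (0.145%). HF+CR gave 145 calls (1.4%) against HF, 65 higher (0.628%) and 80 lower (0.772%), and 1013 calls (9.78%) against LF+CR, 487 higher (4.7%) and 526 lower (5.08%). At an unadjusted p under 0.05 the 4 comparisons held 2114, 1742, 1447 and 2726 genes, in the order given. Whole profiles stayed close: HF+CR and LF libraries correlated at r = 0.947 to 0.976 across genes, against 0.966 to 0.979 within LF and 0.952 to 0.983 within HF+CR. The median absolute log2 difference between group means was 0.18 for HF+CR and LF, 0.17 for HF and LF, 0.15 for HF+CR and HF and 0.20 for HF+CR and LF+CR. These comparisons share libraries, and their counts were not tested against each other. Leaving out the pancreas libraries gave 122 called genes, leaving out the bile duct libraries 283, and leaving out LF 1, HF+CR 1 or HF+CR 2 gave 114, 137 and 112. Leaving out LF 3 gave 622, and a fit on the 6 libraries alone, without the spread of the other groups, gave 23 calls.

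**Figure D1:**
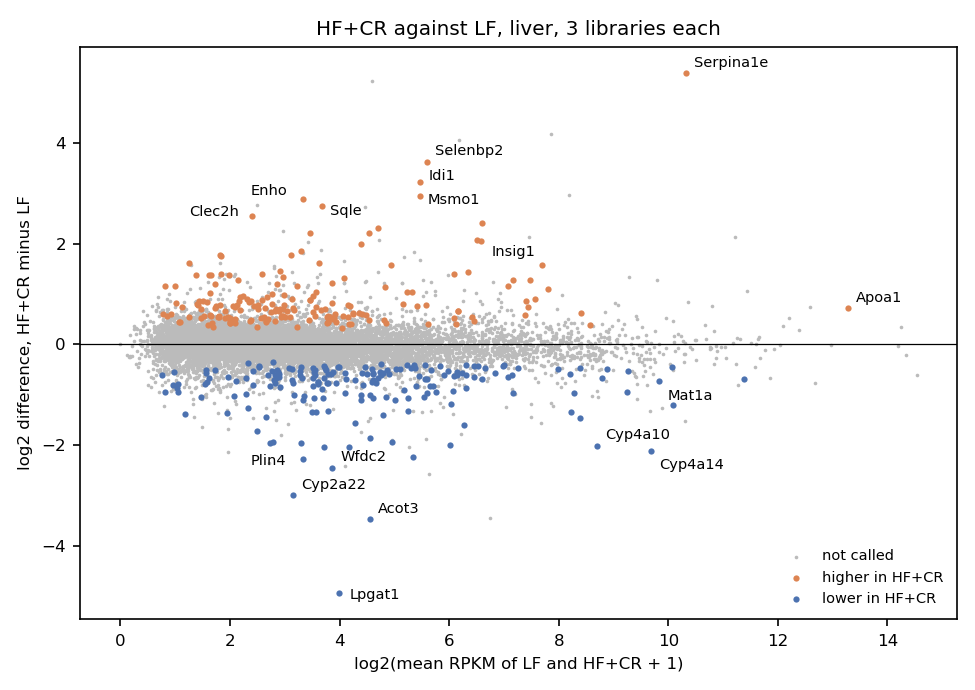
Each point is 1 of 10356 genes, with the log2 of the mean RPKM of both groups plus 1 on the x axis and the log2 difference of HF+CR minus LF on the y axis. Called genes are orange (182 higher) or blue (184 lower). Serpina1e is the highest called point at 5.39, the cholesterol genes Idi1 and Msmo1 lie near 3, and Acot3 lies at -3.47. Lpgat1, the lowest point, is listed at 0 in every HF+CR library, so its height is not a fold.

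Cholesterol synthesis and uptake genes were the group with the highest median difference among the 24 pathway lists. Of 25 tested members 15 were called higher and 0 lower, against 1.76% of all genes called higher, and the median log2 difference was 1.62, against -0.007 for all genes. HF+CR libraries lay above all LF libraries for 16 of the 25, against 9.17% of all genes. Among the called members were genes along the whole pathway, from Hmgcs1 and Mvk in the mevalonate part through Idi1, Fdps and Fdft1 to Sqle, Lss, Cyp51, Msmo1, Nsdhl, Sc5d and Dhcr7 in the sterol part, with Mvd and Insig1.

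The stretch of 150 bases before the transcription start is shown for the 5 most changed of these genes that the RefSeq promoter table of GRCm38.p6 holds, because sterol-regulated promoters are known to pair the SREBP site with a CCAAT box, bound by the factor NF-Y. Capitals mark CCAAT or its reverse complement ATTGG, and in Hmgcs1 also a match to TCACNCCAC, a core of the sterol regulatory element. The motifs do not overlap here. The stretches lie at chr13:8885456-8885605 on the plus strand (Idi1), chr8:64733579-64733728 on the minus strand (Msmo1), chr5:4104698-4104847 on the minus strand (Cyp51), chrX:72918371-72918520 on the plus strand (Nsdhl) and chr13:119690201-119690350 on the plus strand (Hmgcs1), and each is written 5′ to 3′ toward the gene.
Idi1: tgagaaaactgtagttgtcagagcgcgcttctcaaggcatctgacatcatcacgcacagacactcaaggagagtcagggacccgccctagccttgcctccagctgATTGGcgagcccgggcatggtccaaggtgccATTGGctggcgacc
Msmo1: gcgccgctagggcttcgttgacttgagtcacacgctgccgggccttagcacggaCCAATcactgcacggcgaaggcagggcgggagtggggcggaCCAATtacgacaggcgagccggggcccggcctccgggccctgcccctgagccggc
Cyp51: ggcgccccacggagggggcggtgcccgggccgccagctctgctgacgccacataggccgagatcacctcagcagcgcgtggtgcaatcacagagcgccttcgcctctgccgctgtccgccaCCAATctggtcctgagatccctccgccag
Nsdhl: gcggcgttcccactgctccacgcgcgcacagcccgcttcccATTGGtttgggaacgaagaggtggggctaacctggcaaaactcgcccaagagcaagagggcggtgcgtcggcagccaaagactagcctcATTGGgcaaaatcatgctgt
Hmgcs1: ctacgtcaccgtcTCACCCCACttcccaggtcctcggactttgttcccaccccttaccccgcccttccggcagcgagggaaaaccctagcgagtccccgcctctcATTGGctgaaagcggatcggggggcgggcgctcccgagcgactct
Over the 250 bases before the start, searched on both strands, CCAAT was found in 16 of the 17 listed cholesterol genes with a promoter entry (94.1%), against 40.5% of 8278 tested genes with an entry. TCACNCCAC was found in 1 of the 17 (5.88%), against 1.44% of those genes. A match of these letters is a description of the window and shows no binding.

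Idi1, isopentenyl diphosphate isomerase, which makes the reactive isoprene unit of the pathway (RefSeq NM_145360, chromosome 13, 8885606 to 8892396), was at 7.79, 3.52 and 8.87 RPKM in LF 1 to 3 and at 93.9, 118 and 27.8 RPKM in HF+CR 1 to 3. Every HF+CR library lay above every LF library, and HF+CR 3 was the lowest of its group. Its log2 difference was 3.23 ± 0.49 (SE, limma adjusted p = 0.00329), an 11.9-fold ratio of group means. Msmo1, a methylsterol oxidase (NM_025436, chromosome 8, 64718123 to 64733578), was at 9.71, 5.16 and 10.6 RPKM in LF and at 98.9, 99.9 and 34.1 RPKM in HF+CR, with a log2 difference of 2.95 ± 0.39 (limma adjusted p = 0.000996). The groups did not overlap, and HF+CR 3 was again the lowest library of its group. Sqle, squalene epoxidase, an early committed step of sterol synthesis (NM_009270, chromosome 15, 59315092 to 59331193), was at 2.68, 1.75 and 1.17 RPKM in LF and at 26.8, 32.6 and 5.94 RPKM in HF+CR (log2 difference 2.74 ± 0.46, limma adjusted p = 0.0061).

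Insig1, which holds SREBP in the endoplasmic reticulum and is itself an SREBP target, was at 44.9, 21.5 and 45.3 RPKM in LF and at 156, 183 and 117 RPKM in HF+CR, without overlap (log2 difference 2.05 ± 0.33, limma adjusted p = 0.0043). Among the 10 members not called were Tm7sf2, with a log2 difference of -0.09, and Stard4, with 1.24.

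The reference groups share libraries with this comparison. In HF against LF 0 of the 25 members were called, against 0.406% of all genes, with a median log2 difference of 0.32. That count does not place HF at the LF level, as 21 of the 25 differences were positive. Msmo1 was at 24.2 to 39.8 RPKM in HF, Idi1 at 13.2 to 21.7 RPKM and Sqle at 3.18 to 6.99 RPKM. For each, every HF library lay above every LF library. Their log2 differences were 1.74, 1.3 and 1.08, none called. In HF+CR against HF 7 members were called higher, against 0.628% of all genes, with a median of 1.15. Among the 7 were Cyp51, Insig1, Dhcr7, Lss, Mvk and Sc5d, with log2 differences from HF of 1.01 to 1.61. Against LF+CR the median was 0.14. There 2 of the 25 were called higher, Msmo1 (1.43) and Mvk (0.88), and 1 lower, against 4.7% and 5.08% of all genes. HF+CR 3 was the lowest HF+CR library for 24 of the 25 members and HF+CR 2 the highest for 23, while LF 2 was the lowest LF library for 18. Without the bile duct libraries 17 members were called higher and the median was 1.76. Without the pancreas libraries 10 were called and the median was 1.61. The count ran from 10, without HF+CR 1 or without HF+CR 2, to 18 without HF+CR 3, and was 1 in a fit on the 6 libraries alone.

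**Figure D2:**
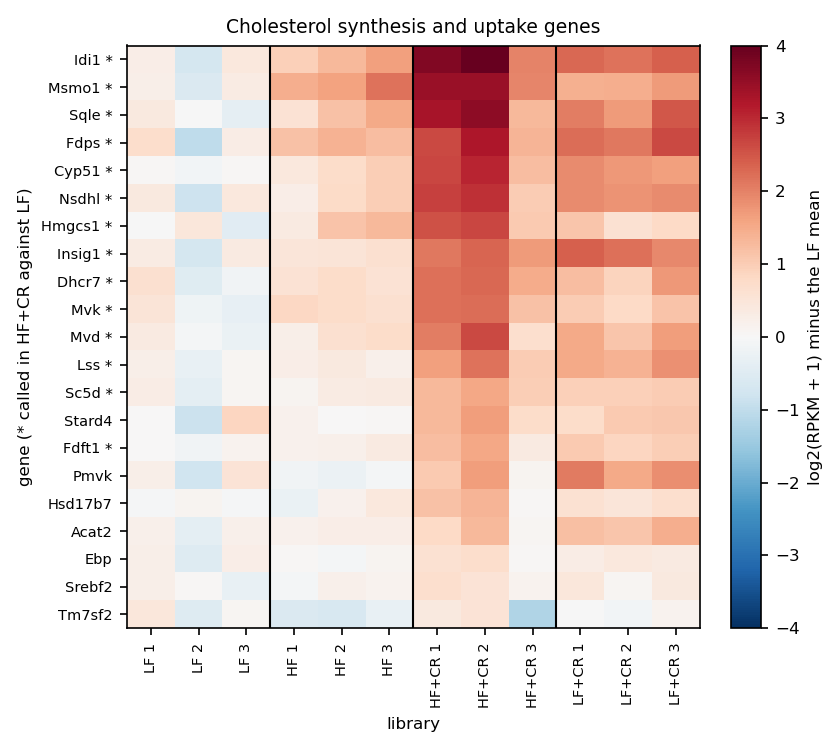
Rows are 21 of the 25 tested cholesterol synthesis and uptake genes, columns the 12 libraries of LF, HF, HF+CR and LF+CR, and colour the log2(RPKM + 1) minus the LF mean, with the scale ending at 4 in either direction. A star marks the 14 plotted genes called in HF+CR against LF. HF+CR 1 and HF+CR 2 are the reddest columns, and HF+CR 3 is the lowest of its group for all 21 plotted genes.

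Fatty acid oxidation and PPAR alpha target genes moved the other way. Of 33 tested members 12 were called lower in HF+CR than in LF and 0 higher, against 1.78% of all genes called lower, and the median log2 difference was -0.50. The 12 were Acot3, Acot1, Acot2, Acot4, Cyp4a14, Cyp4a10, Cyp4a31, Cyp4a32, Pex11a, Acaa1b, Slc25a20 and Eci1. HF+CR libraries lay below all LF libraries for 24 of the 33, against 10.6% of all genes. Summed over the list, the members were at 8810, 10400 and 7570 RPKM in LF and at 4890, 5260 and 5080 RPKM in HF+CR.

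Pex11a, which drives the division of peroxisomes (NM_011068, chromosome 7, 79735957 to 79743131), was at 140, 116 and 91.6 RPKM in LF and at 34.8, 41.3 and 35.2 RPKM in HF+CR. The groups were far apart and HF+CR was tight. Its log2 difference was -1.60 ± 0.17 (limma adjusted p = 0.000448), and against HF it was -1.38 (0.00227). Acot3, an acyl-CoA thioesterase that frees fatty acids from coenzyme A (NM_134246, chromosome 12, 84052144 to 84060400), was at 48.1, 21.9 and 55.7 RPKM in LF and at 1.16, 4.74 and 2.77 RPKM in HF+CR (log2 difference -3.47 ± 0.46, 0.00102). HF lay between at 17.5 to 19.7 RPKM, and Acot3 was called lower in HF+CR against HF too (-2.42, 0.0205).

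Cyp4a14, a P450 that hydroxylates the end of fatty acids (NM_007822, chromosome 4, 115486200 to 115496158), was at 1110, 2060 and 881 RPKM in LF and at 237, 333 and 316 RPKM in HF+CR, without overlap (log2 difference -2.11 ± 0.44, limma adjusted p = 0.0169). Its neighbour Cyp4a10 was at 648, 792 and 555 RPKM in LF and at 177, 159 and 152 RPKM in HF+CR (-2.01 ± 0.38, 0.0107). In HF, without CR, these 2 genes differed from LF by -1.29 and -1.07 and were not called. The Acot genes form a cluster on chromosome 12 and the Cyp4a genes one on chromosome 4, and close copies within each share sequence, so the split of reads among them is uncertain.

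Slc25a20 and Eci1 act in mitochondria. Slc25a20, the carnitine-acylcarnitine carrier, differed by -0.61 ± 0.15 (limma adjusted p = 0.0392) and Eci1, an enoyl-CoA isomerase, by -0.60 ± 0.14 (0.0311). Of other mitochondrial members, Cpt1a, the gate of entry, differed by -0.36 (0.366), Acadm by -0.26 (0.395) and Hadha by -0.39 (0.0971), none of them called. Ppara, the receptor gene, differed by 0.07 (0.924), the only member with a positive difference. In HF against LF 0 of the 33 were called, against 0.406% of all genes, with a median of -0.11. That count does not place HF at the LF level. In HF, Cyp4a31 differed from LF by -2.31 and Acot1 by -1.55, neither called, and 7 of the 33 were positive. In HF+CR against HF 4 were called lower, against 0.772% of all genes, with a median of -0.40. Against LF+CR the median was -0.05, with 2 members called higher and 3 lower, against 4.7% and 5.08% of all genes. The list summed to 6260, 5920 and 4860 RPKM in LF+CR, so the other CR group was low as well. For HF+CR against LF, 6 members were called lower without the pancreas libraries (median -0.55) and 6 without the bile duct libraries (median -0.45). Leaving out single libraries gave 6 to 13 calls, 6 without LF 1 or HF+CR 1 and 7 without LF 2 or HF+CR 2, and the fit on the 6 libraries alone gave 4.

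Lipid droplet genes were lower in part. Of 17 tested members 3 were called lower and 0 higher, against 1.78% of all genes called lower, with a median log2 difference of -0.68. HF+CR libraries lay below all LF libraries for 6, against 10.6% of all genes. Plin4, a droplet coat protein (NM_020568, chromosome 17, 56100587 to 56109948), was at 32.9, 9.14 and 6.56 RPKM in LF, at 1.45, 1.29 and 3.09 RPKM in HF+CR and at 27.3, 37.6 and 26 RPKM in HF. HF+CR lay below every LF and HF library, LF 1 reached the HF range, and LF 2 and LF 3 lay between. LF+CR was as low, at 2.54, 2.53 and 4.24 RPKM, a range that overlapped HF+CR. Its log2 difference was -2.27 ± 0.51 from LF (limma adjusted p = 0.0245) and -3.44 from HF (0.00539). Plin5, the coat protein that tethers droplets to mitochondria, was at 39.6, 34.4 and 22.4 RPKM in LF and at 14.5, 14.6 and 14.4 RPKM in HF+CR (-1.06 ± 0.21, 0.013), and Fitm2, needed for droplets to bud from the endoplasmic reticulum, differed by -1.01 ± 0.20 (0.0118).

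Cidea, which fuses small droplets into large ones, was at 26.5, 0.509 and 5.4 RPKM in LF and at 0.443, 0.0949 and 0.271 RPKM in HF+CR. The LF libraries were spread widely, with LF 2 near the HF+CR level, and the log2 difference of -2.35 ± 1.0 was not called (limma adjusted p = 0.198). HF was at 44.9, 72.2 and 48 RPKM, and HF+CR was called lower than HF (-5.44, 0.0187). Cidec, its relative, was at 38.5, 28.7 and 8.92 RPKM in LF and at 1.15, 0.88 and 18.1 RPKM in HF+CR, where HF+CR 3 lay inside the LF range (-2.41 ± 0.82, 0.113). It was called lower against HF as well (-3.92, 0.0313). Plin2, the common droplet coat protein of hepatocytes, differed from LF by -0.20 (0.752). Over the 17 members, 0 were called in HF against LF, against 0.406% of all genes, with a median of 0.31. In HF+CR against HF 4 were called lower, against 0.772% of all genes, with a median of -0.64. Against LF+CR the median was 0.18, with 1 member called higher and 0 lower, against 4.7% and 5.08% of all genes. The 3 calls against LF became 0 without LF 1, 2 without HF+CR 1 and 1 without HF+CR 2, and rose to 6 without HF+CR 3. They were 0 in the fit on the 6 libraries alone.

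**Figure D3:**
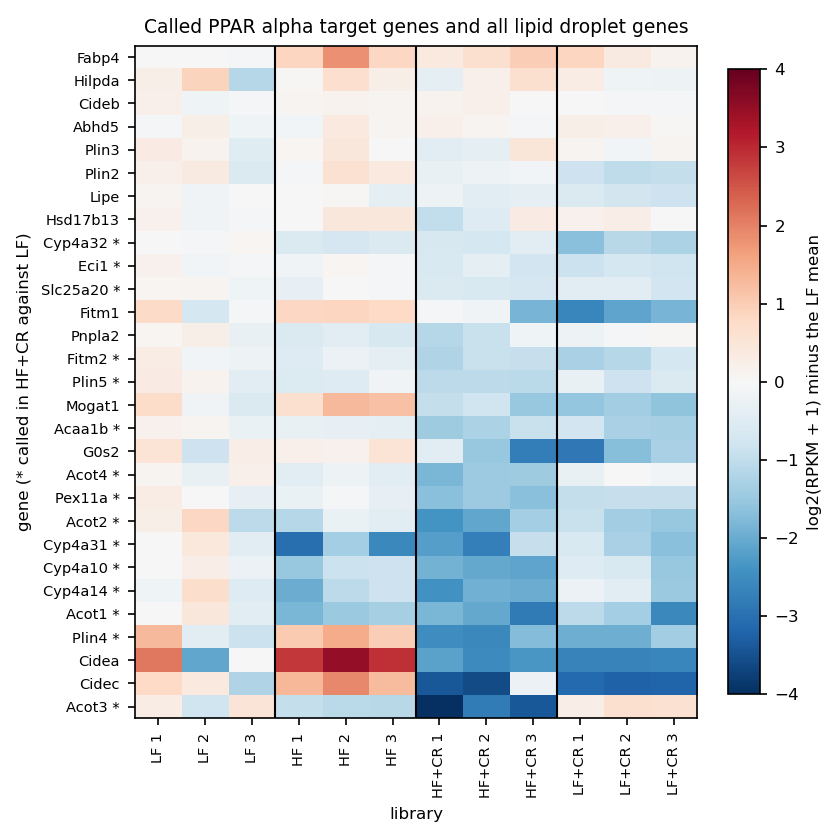
Rows are the 12 PPAR alpha target genes called in HF+CR against LF and all 17 tested lipid droplet genes, columns the 12 libraries, and colour the log2(RPKM + 1) minus the LF mean, with the scale ending at 4 in either direction. A star marks called genes. Plin4, Cidea and Cidec are red in HF and blue in HF+CR 1 and HF+CR 2, and the Acot and Cyp4a genes are blue in all 3 HF+CR libraries.

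Fatty acid synthesis genes as a list had a median near LF. Of 21 tested members 1 was called higher and 0 lower, against 1.76% and 1.78% of all genes. The call was Acly, the enzyme that makes cytosolic acetyl-CoA for both fatty acids and sterols, at 17.8, 13.7 and 18 RPKM in LF and 37.4, 51 and 27.4 RPKM in HF+CR (log2 difference 1.14 ± 0.27, limma adjusted p = 0.0336). The median of the list was 0.05. Members lay on both sides: Fasn, fatty acid synthase, differed by 1.28 ± 0.47 (0.14) and Srebf1, the gene of the lipogenic SREBP, by 1.38 ± 0.42 (0.0781), while Scd1, the stearoyl-CoA desaturase, differed by -1.52 ± 0.54 (0.125), and none of these 3 was called. Against LF+CR, 10 of the 21 were called lower in HF+CR, against 5.08% of all genes, with a median of -1.04, among them Fasn (-1.59), Scd1 (-2.53) and Elovl6 (-2.29). Of 16 fatty acid uptake and binding genes 1 was called higher and 1 lower, against 1.76% and 1.78% of all genes. Acsl4, an acyl-CoA synthetase for arachidonate, was called higher (0.98 ± 0.26, 0.0497) and Slc27a1, a fatty acid transporter, lower (-0.99 ± 0.18, 0.00918). Cd36, a fatty acid receptor, was at 36.5, 36.4 and 25.6 RPKM in LF and at 5.28, 13.2 and 18.6 RPKM in HF+CR, groups that did not overlap, yet it was not called (-1.47 ± 0.50, 0.112).

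Few sex-biased liver genes were called. Of 39 tested male-biased genes 3 were called higher and 0 lower, against 1.76% of all genes called higher, with a median log2 difference of 0.57 and a positive difference for 27. Among those below 0 were Mup20 (-0.76), Cyp4a12a (-0.68) and Cyp4a12b (-0.60), none of them called. Of 29 tested female-biased genes 5 were called lower and 0 higher, against 1.78% of all genes called lower, with a median of -0.59. The male-biased calls were Serpina1e, Selenbp2 and Nudt7, and the female-biased calls were Acot3, Cyp4a10, Fmo2, Slc22a26 and Fmo1. Nudt7 differed by 1.57 ± 0.38, and its groups overlapped, with HF+CR 3 at 143 RPKM and LF 3 at 164 RPKM. Acot3 and Cyp4a10 were also counted above among the PPAR alpha targets. Neither count has a test of its own.

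Serpina1e, an alpha-1 antitrypsin gene (NM_009247, chromosome 12, 103946931 to 103956897), was at 25.7, 27.1 and 171 RPKM in LF and at 4510, 1490 and 1410 RPKM in HF+CR. The lowest HF+CR library was several times the highest LF library. Its log2 difference was 5.39 ± 0.97 (limma adjusted p = 0.0085), and it was called higher against HF (4.93, 0.0219) and against LF+CR (8.14, 0.000166). Selenbp2, a selenium-binding protein (NM_019414, chromosome 3, 94693573 to 94704406), was at 6.84, 4.28 and 5.49 RPKM in LF, at 134, 38.9 and 94.3 RPKM in HF+CR, at 14.5, 7.14 and 5.95 RPKM in HF and at 7.47, 7.73 and 7.92 RPKM in LF+CR. HF+CR alone of these 4 groups stood high, and the difference from LF was 3.63 ± 0.42 (0.000448). Serpina1 and Selenbp genes have near-identical copies, so reads may be split wrongly among them.

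Other male-biased genes were uneven within HF+CR. Hsd3b5, a steroid dehydrogenase of male liver, was at 0.468, 0 and 14.9 RPKM in LF and at 202, 152 and 1.02 RPKM in HF+CR, and was not called (limma adjusted p = 0.119). Slco1a1, an organic anion transporter, was at 8.69, 4.14 and 40.1 RPKM in LF and at 92.9, 85.1 and 10.5 RPKM in HF+CR (1.83 ± 0.80, 0.207). In both genes HF+CR 1 and HF+CR 2 were high, and HF+CR 3 lay inside the LF range. Over the list HF+CR 1 was the highest HF+CR library for 27 of the 39 genes and HF+CR 3 the lowest for 27. Without HF+CR 3 12 male-biased genes were called, without LF 3 7, without both bile duct libraries 8, and without the pancreas libraries 1, so the count of 3 turns on single libraries. The median was 0.70 without the bile duct libraries and 0.26 without the pancreas libraries. For female-biased genes the 5 calls became 8 without HF+CR 3, 2 without HF+CR 1 and 3 without HF+CR 2 or LF 1.

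The list medians of HF+CR and LF+CR stood on opposite sides of LF. Relative to LF the median male-biased gene was at -0.12 in HF, 0.57 in HF+CR and -1.42 in LF+CR, and the median female-biased gene at -0.14, -0.59 and 1.09, in the same order. These medians share the LF libraries. Against LF+CR, HF+CR held 25 of the 39 male-biased genes called higher, against 4.7% of all genes, with a median of 2.24, and 20 of the 29 female-biased genes called lower, against 5.08% of all genes, with a median of -1.71. Cux2, a female-specific transcription factor, was at 0.113, 0.462 and 0.0853 RPKM in LF, at 0, 0.0119 and 0.0282 RPKM in HF+CR and at 7.23, 4.45 and 8.82 RPKM in LF+CR. C8a, a chain of the terminal complement component, was at 96.9 to 135 RPKM in LF, 160 to 193 RPKM in HF+CR and 3.13 to 8.95 RPKM in LF+CR. HF+CR differed from LF by -0.25 (0.446) for Cux2 and 0.68 (0.22) for C8a, and from LF+CR by -2.91 (3.88e-07) and 4.56 (7.64e-07). Mup20, the major urinary protein darcin, was at 4560, 10400 and 9570 RPKM in LF and at 6520, 2500 and 5720 RPKM in HF+CR, groups that overlapped, and at 151 to 498 RPKM in LF+CR. Mup genes share reads among many copies, which leaves their single values uncertain.

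**Figure D4:**
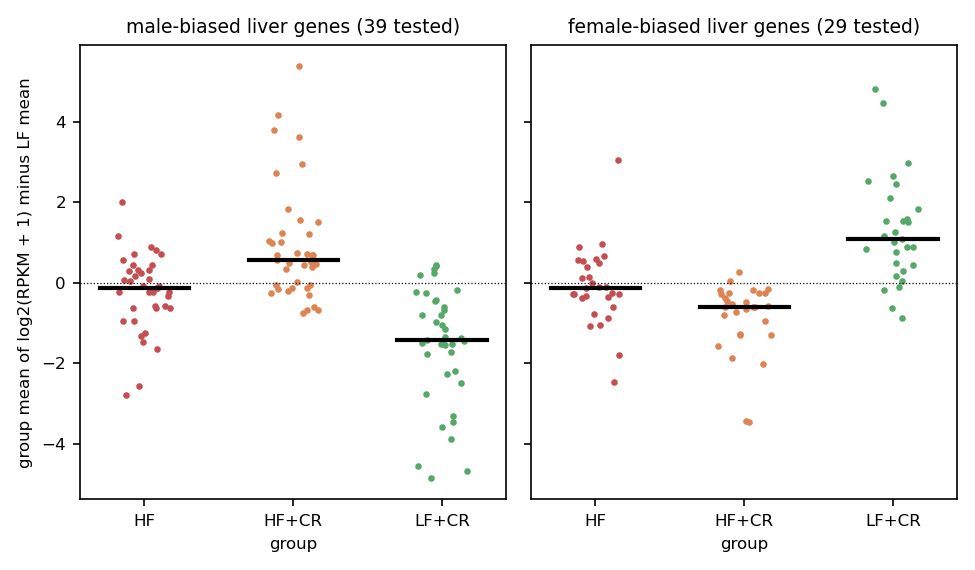
Each point is a gene, placed by its group mean of log2(RPKM + 1) minus the LF mean in HF, HF+CR and LF+CR, for 39 male-biased genes (left) and 29 female-biased genes (right). Black lines are medians. HF+CR lies at 0.57 and -0.59 and LF+CR at -1.42 and 1.09, on the other side of the LF level.

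The genes called in HF against LF came out differently from one another under CR. Those 42 calls turned on single libraries, with 0 without LF 1, 4 without HF 2, 8 without HF 3 and 40 without LF 3. A fit on the LF and HF libraries alone gave 0. HF+CR shares the LF libraries as reference with HF, and the genes below were chosen by their difference of HF from LF, so the values are set side by side with no test of the set. The HF libraries used for that choice also enter HF+CR against HF and the interaction. For these genes both therefore lean toward a return to LF, and their p-values are no independent support for one. The 27 genes called higher in HF than in LF had a median log2 difference from LF of 0.85 in HF and 0.42 in HF+CR, and the 15 called lower had -0.66 in HF and -0.39 in HF+CR. Orm3, an acute-phase orosomucoid, was at 0.739, 0.213 and 0 RPKM in LF, 6.2, 11.6 and 5.04 RPKM in HF and 0.669, 0.412 and 2.8 RPKM in HF+CR. HF+CR 1 and HF+CR 2 lay inside the LF range and all lay below HF. Its log2 difference from LF was 2.67 in HF (limma adjusted p = 0.0192) and 0.70 in HF+CR (0.364), and HF+CR was called lower than HF (-1.98, 0.0292).

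Ear2, an eosinophil-associated ribonuclease, was at 1.68, 2.66 and 1.57 RPKM in LF, 6.92, 13.3 and 5.84 RPKM in HF and 2.91, 1.84 and 2.91 RPKM in HF+CR. Postn, the matrix protein periostin, was at 1.67, 1.5 and 1.08 RPKM in LF, 3.74, 5.49 and 3.36 RPKM in HF and 1.48, 1.77 and 2.17 RPKM in HF+CR. Both were called lower in HF+CR than in HF (-1.39, limma adjusted p = 0.0168, and -0.87, 0.0229) and differed from LF by 0.26 (0.599) and 0.22 (0.524). Cyp2b13, a female-biased P450, was at most 0.785 RPKM in LF and 0.254 RPKM in HF+CR and at 5.24, 17.5 and 12.8 RPKM in HF (HF+CR against HF -3.43, 0.00227). Lower in HF and nearer LF in HF+CR were Srd5a1, a steroid reductase, at 26.5 to 35.4 RPKM in LF, 14 to 15.5 RPKM in HF and 24.2 to 31.5 RPKM in HF+CR, and Fbxo21, a ubiquitin ligase subunit, at 45.5 to 52.9, 25.7 to 30.2 and 37.3 to 51 RPKM. HF+CR was called higher than HF for both (0.84, 0.0431, and 0.57, 0.0338). LF+CR was not near LF for Srd5a1, Fbxo21 and Cyp2b13. Srd5a1 was at 16, 13.6 and 16.4 RPKM and Fbxo21 at 25.3, 30.7 and 28 RPKM, in or close to the HF range, and Cyp2b13 was at 44.9, 15 and 40.7 RPKM. It was nearer LF than HF for Ear2, at 1.28, 1.39 and 1.25 RPKM, and Orm3, at 0.103, 0.248 and 1.16 RPKM. Postn was at 2.02, 3.09 and 3.22 RPKM in LF+CR, between LF and HF. A difference from LF that misses the threshold does not show that the levels were equal.

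Wwc1 and Kif13b were near the HF level in HF+CR, and in LF+CR too. This did not hold for all genes that HF had moved. Ubr4 had a mean of 18.2 RPKM in LF, 12.2 in HF, 13.6 in HF+CR and 16.5 in LF+CR, and Rgs5 one of 4.16, 8.35, 6.95 and 5.18 RPKM, in the same order. Wwc1, the scaffold protein KIBRA, was at 26.4, 29.5 and 26.1 RPKM in LF, 17.9, 20.7 and 17.7 RPKM in HF, 17.9, 19.7 and 19.6 RPKM in HF+CR and 20.7, 18.9 and 19.9 RPKM in LF+CR. Kif13b, a kinesin motor, was at 7.62, 7.74 and 7.65 RPKM in LF, 4.54, 5.7 and 4.47 RPKM in HF, 5.3, 5.28 and 4.25 RPKM in HF+CR and 5.65, 5.86 and 5.77 RPKM in LF+CR. Both were called lower than LF in HF+CR (-0.49 ± 0.10, limma adjusted p = 0.0134, and -0.55 ± 0.11, 0.0157) and differed from HF by 0.03 (0.943) and 0.01 (0.982) and from LF+CR by -0.05 (0.782) and -0.19 (0.300). Between these cases lay the interferon-induced chemokine Cxcl9, at 1.12 to 2.83 RPKM in LF, 5.62 to 14.1 RPKM in HF and 2.6 to 6.17 RPKM in HF+CR, where HF+CR was called against neither LF (0.68, 0.288) nor HF (-1.12, 0.142). Of 35 interferon response genes 0 were called in HF+CR against LF, against 3.53% of all genes, with a median of 0.11. In HF against LF 2 were called higher, against 0.261% of all genes, with a median of 0.68. The 6 class II antigen presentation genes had medians of 0.50 in HF+CR and 1.17 in HF, with 0 calls, against 3.53% and 0.406% of all genes. In these 6 genes LF 2 was always the highest LF library and HF+CR 3 the highest HF+CR library, the same 2 libraries that were high in macrophage markers, and the part of those cells in the values was not tested.

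The difference of HF from LF with CR was also tested against that without CR. This interaction called 106 genes (1.02%), 60 of them positive (0.579%) and 46 negative (0.444%), by limma. Among them were Postn (-1.51), Srd5a1 (1.83), Fbxo21 (1.37) and Cyp2b13 (-7.90), which HF alone had moved. These were chosen by HF against LF, which is a part of the interaction, so their calls are not independent of that choice. The interaction also called genes described above for other reasons, such as Serpina1e (7.69), Selenbp2 (2.63), Slco1a1 (7.84), C8a (4.79), Mup20 (4.34), Cux2 (-2.64) and Acot3 (-2.93).

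**Figure D5:**
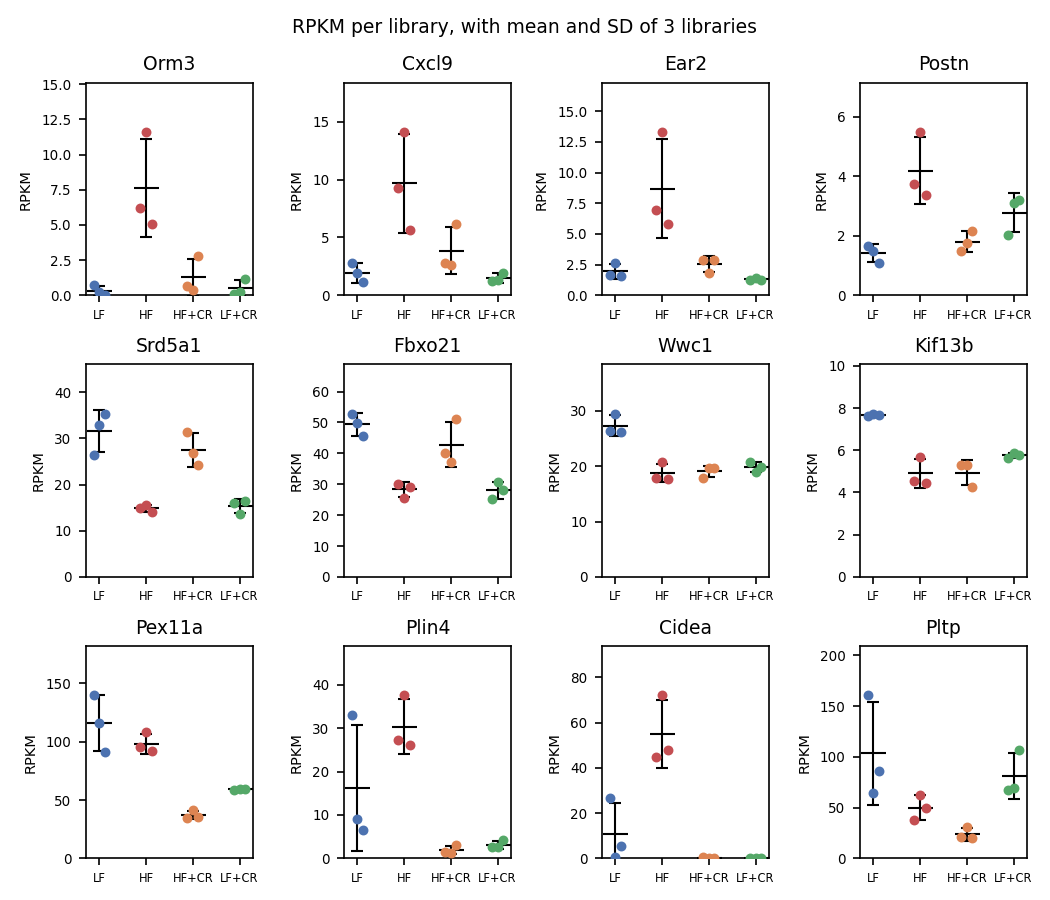
RPKM in each library of LF, HF, HF+CR and LF+CR for 12 genes, with bars for the mean and SD of 3 libraries and each axis starting at 0. Orm3, Ear2, Postn, Srd5a1 and Fbxo21 lie nearer LF than HF in HF+CR, Wwc1 and Kif13b lie near the HF level in HF+CR and LF+CR, and Pex11a, Plin4 and Pltp lie below both LF and HF.

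Other named genes were called as well. Enho, the gene of the peptide adropin, was at 0.823, 3.06 and 0.719 RPKM in LF and at 16.7, 12.8 and 20.2 RPKM in HF+CR (log2 difference 2.89 ± 0.44, limma adjusted p = 0.00333). Clec2h, a lectin-like membrane protein, was at 0.463, 0.132 and 0.984 RPKM in LF and at 4.93, 8.4 and 10.7 RPKM in HF+CR (2.54 ± 0.29, 0.000448). F11, coagulation factor XI, was at 16.6, 10.9 and 16.2 RPKM in LF and at 48.9, 45 and 39.9 RPKM in HF+CR (1.57 ± 0.18, 0.000448). For these 3 genes no HF+CR library overlapped LF, and each was also called higher in HF+CR against HF (2.56, 2.40 and 1.12). Apoa1, the main HDL apolipoprotein, was called higher at 11700 to 13300 RPKM against 6010 to 9200 RPKM in LF (0.72 ± 0.18, 0.0429).

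Among genes lower in HF+CR, Pltp, which moves phospholipid between lipoproteins, was at 161, 64 and 85.9 RPKM in LF and at 20.8, 30.8 and 19.7 RPKM in HF+CR (-2.00 ± 0.30, limma adjusted p = 0.00333). Wfdc2, a secreted WAP-domain protein, was at 44.5, 10.6 and 17.5 RPKM in LF and at 3.47, 3.92 and 1.7 RPKM in HF+CR (-2.45 ± 0.45, 0.00918). Rnd2, a small GTPase, was at 22.4, 19.8 and 17.7 RPKM in LF and at 3.64, 3.26 and 5.7 RPKM in HF+CR (-2.03 ± 0.24, 0.000448). In each of these the groups were separate, and Wfdc2 and Rnd2 were also called lower against HF (-2.92 and -1.35). Cyp2a22, a P450 with close paralogs that may share its reads, was at 18.4, 18.4 and 7.84 RPKM in LF and at 0.507, 1.03 and 1.18 RPKM in HF+CR (-2.99 ± 0.46, 0.00356). Acnat2, an acyltransferase that conjugates fatty acids to amino acids, differed by -2.03 ± 0.42 (0.0154). Lpgat1, a lysophospholipid acyltransferase, was at 26.9 to 34 RPKM in LF and is listed at 0 in all 3 HF+CR libraries and in HF 1 and HF 3, with 31 RPKM in HF 2, so no fold is given.

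The counts of the lists that follow are to be read against the 3.53% of all genes called in either direction, and several, such as 1 of 29 acute-phase genes, lie near that share. In amino acid metabolism, 2 of 34 tested genes were called higher and 1 lower, with a median of 0.14. Ass1, argininosuccinate synthase of the urea cycle, was at 136, 104 and 189 RPKM in LF and 233, 319 and 351 RPKM in HF+CR (1.09 ± 0.26, limma adjusted p = 0.0311), and Agxt, which detoxifies glyoxylate, differed by 0.86 ± 0.19 (0.0236). Mat1a, which makes S-adenosylmethionine, the methyl donor of the liver, was at 1280, 1000 and 1150 RPKM in LF and at 648, 662 and 741 RPKM in HF+CR (-0.73 ± 0.14, 0.0118). HF was at 1020 to 1160 RPKM for Mat1a, and HF+CR was called lower than HF (-0.69, 0.0292). Of 48 xenobiotic metabolism genes 3 were called lower, Cyp2c38 (-1.93 ± 0.33, 0.00715), the carboxylesterase Ces1d (-1.34 ± 0.17, 0.00075) and Nr1i3, the gene of the drug-sensing receptor CAR (-0.93 ± 0.18, 0.011), and 1 higher, the sulfotransferase Sult1b1 (0.80 ± 0.19, 0.0311). Cyp2c and Ces1 genes have close copies, so their split is uncertain.

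Of 30 gluconeogenesis and insulin response genes, Enho and Sesn1, a stress-induced inhibitor of mTORC1 (0.68 ± 0.18, limma adjusted p = 0.0481), were called higher and Pcx, pyruvate carboxylase, lower (-0.56 ± 0.14, 0.0355), while Pck1 and Igfbp1 were not called (-0.81, 0.186, and -0.85, 0.644). With all RefSeq rows of a gene summed, Sesn1 and Pcx lost their calls (limma adjusted p of 0.0834 to 0.153). Of 19 genes of the growth hormone and IGF1 axis 1 was called, the hepatocyte transcription factor Hnf4a, at 168 to 193 RPKM in LF and 125 to 130 RPKM in HF+CR (-0.47 ± 0.12, 0.0482). HF was at 112 to 136 RPKM. Igf1 differed by 0.46 (0.233). Of 25 bile acid genes the racemase Amacr was called higher (0.40 ± 0.09, 0.0311) and the transporter Slco1a4 lower (-1.35 ± 0.29, 0.0201), and Cyp7a1 and Cyp8b1, which set bile acid output and composition, were not called (0.15, 0.906, and -0.74, 0.412). Lbp, which binds bacterial lipopolysaccharide, was the 1 acute-phase gene of 29 called, lower at 21.4 to 26.8 RPKM against 40.1 to 58.7 RPKM (-1.07 ± 0.21, 0.0124). Single calls also came from the heat shock list (Hspe1, 0.47), the chromatin list (Kdm5b, 0.52) and the coagulation list (F11).

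Lists with 0 calls of limma in this comparison were interferon response, class II antigen presentation, NRF2 and antioxidant genes (median -0.11), the circadian clock (-0.19), endoplasmic reticulum stress (0.09), oxidative phosphorylation (-0.13), cytosolic ribosomal proteins (-0.04) and the cell cycle (0.29). Among the 9 cell type marker lists, calls came only from the hepatocyte list, Apoa1 higher and Hnf4a lower. 

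Of the 52 genes called in this comparison and named by the rule, 26 lost their call without the pancreas libraries (limma adjusted p of 0.0533 to 0.17), among them Serpina1e, Fdps, Nsdhl, Hmgcs1, Acly, Plin4, Cyp4a14, Apoa1, Ass1, Wwc1 and Kif13b. Without the bile duct libraries 21 lost it (0.0509 to 0.215), among them Cyp4a10, Cyp4a14, Acot1, Plin5, Lbp, Ass1, Apoa1, Wwc1 and Kif13b. Leaving out LF 1, HF+CR 1 or HF+CR 2 cost 25 calls each, LF 2 18, HF+CR 3 7 and LF 3 4. The greatest loss was in a fit on the 6 libraries alone, where 41 of the 52 lost their call (0.0662 to 0.301), among them Idi1, Msmo1, Sqle, Insig1, Serpina1e, Acot1, Cyp4a14, Plin4, Plin5 and Wfdc2, and 11 kept it. None of the 52 differences changed sign in these fits.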

How the data were processed

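The authors deposited RPKM per RefSeq transcript for polyA RNA of liver, made with TopHat 1.4.1 and Cufflinks 1.3.0 on mm10 per the submitters' processing notes; the annotation version and the read total behind the scaling are not given in the sources used here. Read counts were not used here, so no count test was run. The per-sample and series-wide values were equal in 550476 of 550476 cases. Of 30582 rows, 30003 were named through a RefSeq table of GRCm38.p6 and 180 through GENCODE. These rows made 23532 genes. For the 4218 genes with several rows, the transcript highest on average across all 18 libraries was taken. Exact zeros were kept as deposited and can be failed estimates. The spacing of low values put the depth at 21.8 to 30.8 M reads in the 6 libraries, an estimate too coarse for counting intervals.

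A gene was tested if 3 or more of the 18 libraries reached 1 RPKM, which left 10356 genes. Values were analysed as log2(RPKM + 1), which understates changes of low genes, in R 4.3.3 with limma 3.58.1: all 6 groups entered 1 model (12 residual degrees of freedom) with a variance trend, two-sided tests and Benjamini-Hochberg adjustment over all genes tested. HF+CR minus LF is the comparison reported; HF minus LF, HF+CR minus HF, HF+CR minus LF+CR and the interaction are contrasts of the same model. Every adjusted p comes from limma.

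The comparison, the 24 pathway lists and the 9 marker lists, written from textbook knowledge, were chosen with earlier results of these data known. Lists are described by counts and medians only. Named genes were up to 12 with the largest difference in each direction among called genes with a mean of at least 2 RPKM whose groups did not overlap and whose call held with rows summed, without predicted genes or zeros beside 5 RPKM within a group; up to 4 called members of each list; up to 8 genes in each direction called in HF against LF; and 33 genes given whatever their result. Other list members are named in the text where a list is described. Some members enter the counts and medians and are not reported here by name. On simulated data for HF+CR against LF, of 50 changed genes per size 56%, 80%, 94% and 94% were recovered at 1.5, 2, 3 and 4-fold among 10356 genes, with 6 false calls. The genes were simulated independently of one another, with the same spread in every group, and only genes of higher expression were changed. In the real libraries many genes shifted together, so these rates check the fit and do not give the recovery or false calls of this comparison. Positions given for genes are their RefSeq spans in GRCm38.p6, 1-based.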

Additional observations from a re-analysis of the deposited data

Results flagged for a closer look

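For 23 of the named genes the difference of HF from LF with CR differed from that without CR in a test of the interaction (limma adjusted p under 0.05 over all 10356 genes). The values are log2 differences of differences. Positive values were 7.69 for Serpina1e, 7.84 for Slco1a1, 5.69 for Elovl3, 5.5 for Cyp4a12b, 5.46 for Cyp4a12a, 4.79 for C8a, 4.34 for Mup20, 2.94 for Clec2h, 2.73 for Enho, 2.63 for Selenbp2, 1.83 for Srd5a1, 1.44 for F11, 1.37 for Fbxo21 and 0.70 for Kdm5b. Negative values were -7.90 for Cyp2b13, -3.73 for Cyp2a22, -2.93 for Acot3, -2.77 for Fmo2, -2.64 for Cux2, -2.61 for Slc22a26, -2.58 for Cyp2c38, -2.18 for Rnd2 and -1.51 for Postn. Srd5a1, Fbxo21, Postn, Cyp2b13 and Cyp4a12b were also called in HF against LF, a difference that the interaction contains. HF+CR was called against LF+CR but not against LF for Slco1a1, Elovl3, Cyp4a12a, Cyp4a12b, C8a, Mup20, Cux2, Cyp2b13, Srd5a1 and Fbxo21. Reads of Serpina1e, Mup20 and the Cyp2 and Cyp4a genes can be shared with near-identical family members, which makes their values uncertain.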

How the results depend on the processing

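HF+CR against LF held 366 calls, 182 higher and 184 lower. Median-of-ratios scaling gave 588 (300 and 288) and quantile normalization 565 (296 lower); the cause was not tested. Fitting only the libraries compared, with fewer samples to set the spread, gave 23 (11 and 12) for this comparison, 29 for HF+CR against HF, 380 for HF+CR against LF+CR, and 0 for HF against LF by limma, with 1286 at an unadjusted p under 0.05. Without the pancreas libraries the counts were 122 (62 and 60), and 28, 131 and 11 in that order; without the bile duct libraries 112 were lower, and the counts were 390 for HF+CR against HF and 140 for HF against LF. Leaving out 1 library at a time gave 112 to 622 in all (114 without LF 1, 137 without HF+CR 1, 112 without HF+CR 2, 622 without LF 3), 56 to 272 higher and 52 to 350 lower (305 without HF+CR 3 and 98 without LF 2). The ranges were 0 (without LF 1) to 40 for HF against LF, 12 (without HF 2) to 296 (without HF+CR 3) for HF+CR against HF, and 430 (without HF+CR 1) to 1231 for HF+CR against LF+CR. HF against LF, at 42, was also 21 with a pseudocount of 0.1, 14 at a mean of at least 5 RPKM, 203 with median-of-ratios scaling and 283 with quantile normalization. Same-numbered HF+CR and LF libraries did not deviate together (r = -0.059, -0.343 and -0.49 across genes, and none correlated best with its own number). The deviations are from group means of 3 libraries, and LF 2 and HF+CR 3, both high in bile duct markers, correlated at 0.436. Such values cannot show whether same-numbered libraries shared a batch, and the labels give only a number. With the replicate number as a block 356 genes were called (180 and 176), 14 in HF against LF, 101 in HF+CR against HF and 963 in HF+CR against LF+CR. The median log2 difference of all genes lay between -0.019 and 0.014 in the 4 comparisons under the deposited and both other scalings. Low RPKM, with the depth known only as an estimate, limits genes near 1 RPKM most.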

Other observations

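In 3 gene groups the members ordered the libraries of a group alike. Genes of 1 library share its depth and composition. For 56 cytosolic ribosomal protein genes HF+CR 1 was the lowest library of its group in 52 and HF+CR 3 the highest in 53. For 53 oxidative phosphorylation genes HF+CR 1 was the lowest in 46 and HF+CR 2 the highest in 39. For 35 interferon response genes LF 3 was the lowest LF library in 32 and LF 2 the highest in 29, and HF+CR 3 was the highest HF+CR library in 27. The summed level of the pancreatic acinar markers was 403 RPKM in HF+CR 1, 38.6 RPKM in HF+CR 2, mostly from a few markers, and 5.32 to 9.36 RPKM in LF and HF+CR 3. That of the bile duct markers was 157 RPKM in LF 2 and 175 RPKM in HF+CR 3, against 20.5 to 41.9 RPKM in the others. The part of either in these orders was not tested.

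Igfbp1, an insulin-suppressed binding protein of IGF, was at 28.8, 98.3 and 11.2 RPKM in LF and at 6.16, 6.11 and 121 RPKM in HF+CR, so HF+CR 3 was about as high as LF 2 and the other HF+CR libraries were below all of LF. Cyp2a4, a female-biased P450, showed the same order, at 35, 402 and 34.9 RPKM in LF and 0.577, 0.555 and 166 RPKM in HF+CR. Neither gene was called in HF+CR against LF (limma adjusted p = 0.644 and 0.225), and Cyp2a4 was picked after its values were seen.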
